A study of Mus musculus with 12 samples.

Results

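The transcripts of 7 RNA-binding proteins that send messenger RNAs to decay were followed through activation of mouse CD4+ T cells: Zfp36, Zfp36l1 and Zfp36l2 of the ZFP36 family, Zc3h12a and Zc3h12d of the Regnase family, and Rc3h1 and Rc3h2 of the Roquin family. They were taken by gene symbol from the table of normalized expression, and all 7 of 7 were found among its 17203 genes. RNA sequencing was done on primary CD4+ cells of C57BL/6 mice in 4 groups of 3 libraries each. The group named Unstimulated was freshly isolated and received no activation. The group named CD3 was activated for 72 h with plate-bound anti-CD3, an antibody against the T cell receptor complex. The group named CD3_CD28 received plate-bound anti-CD3 with soluble anti-CD28, an antibody against a costimulatory receptor, for 72 h. The group named CD3_CD28_ICOS was kept for 72 h with 3 soluble antibodies, to CD3, to CD28 and to the costimulatory receptor ICOS, so it also differed from the other stimulated groups in the form of the anti-CD3. The unstimulated cells were not cultured, so stimulation and culture cannot be told apart. Transduced cells appear in the series' design text and in none of the sample labels. Whether replicate libraries stem from different mice is not stated, and p-values therefore measure only the spread between these libraries.

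ZFP36 proteins carry paired zinc fingers that bind AU-rich stretches in the 3′ untranslated region (UTR) of cytokine and activation messenger RNAs, and recruit the deadenylase complex that removes the poly(A) tail. Regnase-1, the product of Zc3h12a, is an endonuclease that cuts stem-loops in 3′ UTRs, and the T cell receptor signal destroys it through the protease MALT1. Roquin-1 and Roquin-2, the products of Rc3h1 and Rc3h2, recognise stem-loops in overlapping sets of transcripts, among them Icos and Tnfrsf4, and hold back follicular helper T cell responses. Protein levels are not reported by these data, and the transcripts described here are those of the decay factors themselves.

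The core of the ZFP36 binding element, searched here as TATTTAT in the sense strand of the 3′ UTR of 1 principal transcript per gene (GENCODE vM21, build mm10), occurred 3 times in each of Zfp36, Zfp36l1 and Zfp36l2. The UTRs searched were 774, 1835 and 1822 bases long. It occurred 2 times in the 7181 bases of Rc3h1 and 3 times in the 5160 bases of Rc3h2, and was not found in the 856 bases of Zc3h12a or the 2327 bases of Zc3h12d. Of the 8908 tested genes with an annotated 3′ UTR, 29.6% held at least 1 copy and 3.65% held at least 3, and overlapping copies were counted separately. The median UTR of those genes was 1080 bases long. Longer UTRs give more room for a match, and these shares were not matched for length. A match describes letters and not binding. One window per gene is shown for the 5 members that hold the element and for Tnf and Ier3, reported ZFP36 targets whose levels are given further on, with the element in capitals, 5′ to 3′ on the transcript strand. They lie at chr7:28376967-28376993 on the minus strand, chr12:80108423-80108449 (minus), chr17:84184915-84184941 (minus), chr1:160970044-160970070 (plus), chr2:37374757-37374783 (minus), chr17:35199709-35199735 (minus) and chr17:35822482-35822508 (plus), in the order listed.
Zfp36: gtgggcccttTATTTATgacgacttTA
Zfp36l1: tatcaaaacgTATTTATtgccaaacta
Zfp36l2: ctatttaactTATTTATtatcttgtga
Rc3h1: ctttactcatTATTTATtgagatgagg
Rc3h2: ccagctgcttTATTTATctttttcatt
Tnf: agcccccctcTATTTATatttgcactt
Ier3: gtctaattaaTATTTATgTATTTATgt

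Expression was deposited as CPM, the reads of a gene for every 1000000 reads of its library, so a value is a gene's share of its library and not an amount per cell. In such bulk samples, fewer cells of a type and less RNA per cell cannot be told apart. The 12 libraries held an estimated 11400000 to 37500000 counted reads, inferred from the step between low values. The CD4 T cell label was met in all of them, with Cd4 between 528 and 1178 CPM and Cd3e between 177 and 567 CPM. Other cell types were also present. The 9 B cell markers summed to 144 to 254 CPM in the unstimulated libraries, 367 to 793 with CD3, 8.10 to 11.8 with CD3_CD28 and 258 to 709 with CD3_CD28_ICOS. The 10 measured myeloid markers summed to 168 to 459 CPM in the unstimulated libraries and 9.57 to 23.5 in all others. Among them Cd68 was not lower with CD3_CD28, at 13.6 to 18.2 CPM against 7.91 to 15.7 in the unstimulated libraries. Each of the other measured myeloid markers was lower there. Pancreatic enzyme transcripts summed to 346 to 1981 CPM in the unstimulated libraries and at most 1.63 elsewhere. A pair of libraries stood apart. In Unstimulated replicate 3, a list of 14 early response and dissociation stress genes summed to 7683 CPM against 1284 and 1076 in the other 2 unstimulated libraries. In CD3_CD28 replicate 1, a ribosomal RNA gene took 11.8% of the reads against 1.26% to 3.20% in the others. Differences were tested with limma on log2(CPM + 1), a scale that understates the change of low genes, for the 9826 genes that reached 10 CPM in 3 or more libraries, with p-values adjusted over those genes in each comparison. A gene was called at an adjusted p under 0.05. All 7 members passed the filter on low values.

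Corrected for the length of the principal transcript, the ZFP36 transcripts were the most abundant of the 7 in the unstimulated cells, and Zc3h12d joined them after stimulation. Zfp36 stood at 224 ± 210 CPM per kb (SD, n = 3) and Zfp36l2 at 217 ± 111 in the unstimulated group, above Zfp36l1 at 94.6 ± 19.8. The other 4 genes were at 5.63 to 12.9 CPM per kb there. With CD3, Zc3h12d reached 85.7 ± 2.75 CPM per kb, beside Zfp36l2 at 82.0 ± 1.84 and Zfp36l1 at 71.2 ± 1.45. Zc3h12a and the Roquin transcripts remained at 4.07 to 11.2 CPM per kb in the 3 stimulated groups. Levels of different genes were compared by value only.

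**Figure D1:**
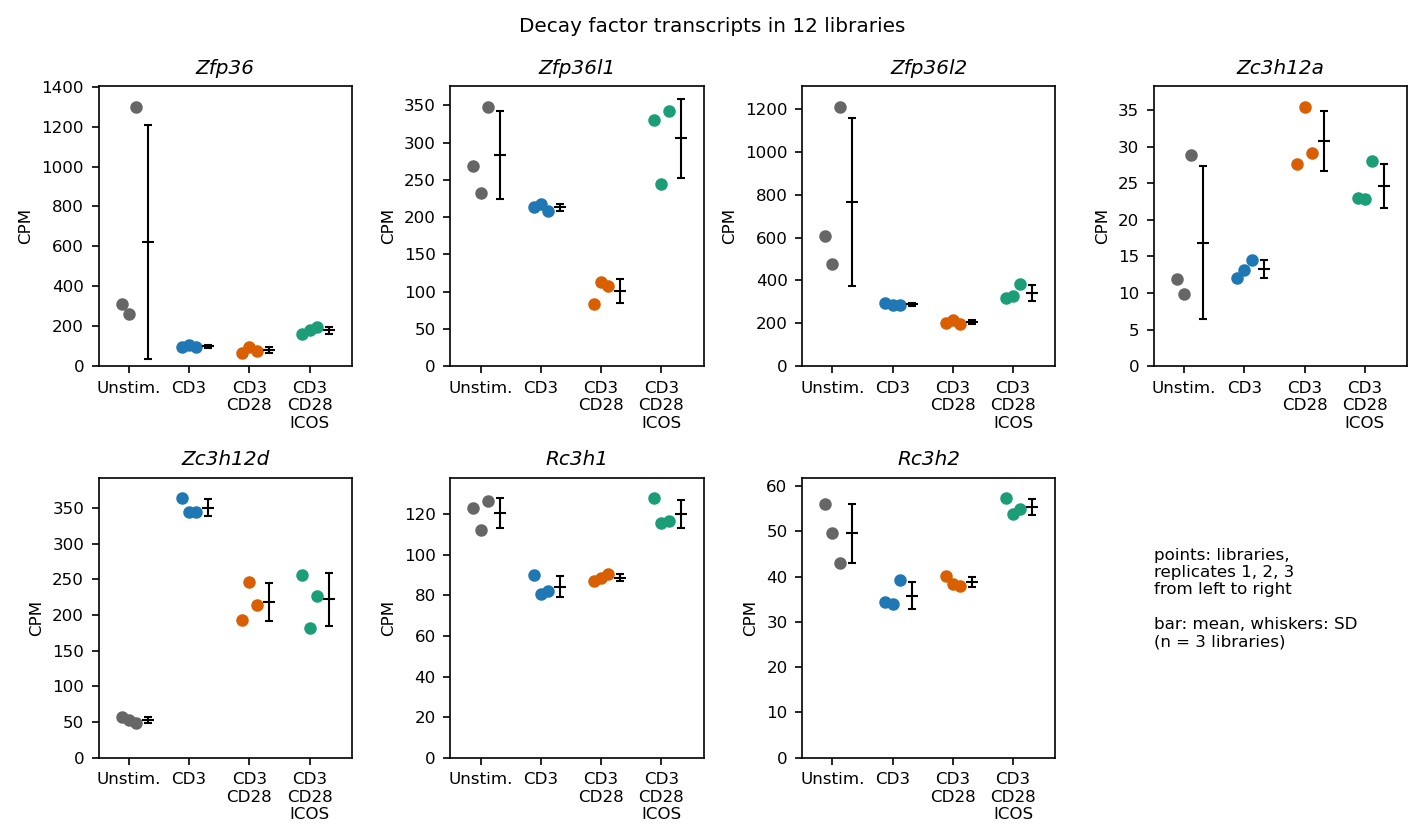
CPM of the 7 genes in each of the 12 libraries (linear axes from 0, with a scale per gene); points are replicates 1 to 3 of each group from left to right, and the bar with whiskers is the mean ± SD of 3 libraries. Unstimulated replicate 3 is far above its group in Zfp36 (1299.6 CPM) and Zfp36l2 (1211 CPM), and Zc3h12d is lowest in the unstimulated libraries, at 47.9 to 57.2 CPM.

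After stimulation with CD3 or CD3_CD28, most of the 7 transcripts were lower than in unstimulated cells and Zc3h12d was higher. In CD3 minus Unstimulated, 1 of 7 was called higher and 5 lower, where 43.6% of all tested genes were called higher and 26.3% lower. In CD3_CD28 minus Unstimulated, 2 were called higher and 5 lower, against 36.1% and 39.1%. In CD3_CD28_ICOS minus Unstimulated, 1 was called higher and 2 lower, against 35.6% and 23.7%. In either direction 6, 7 and 3 of the 7 were called in these comparisons, beside 69.8%, 75.2% and 59.4% of all tested genes. The libraries of the groups compared did not overlap for 6, 6 and 3 members, beside 76.9%, 76.7% and 64.5% of genes. The median log2 fold change of the 7 genes was -0.45, -0.44 and 0.12 in these comparisons, beside 0.18, -0.04 and 0.08 over all tested genes. The 3 comparisons share the unstimulated libraries, so they are not independent of each other.

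**Figure D2:**
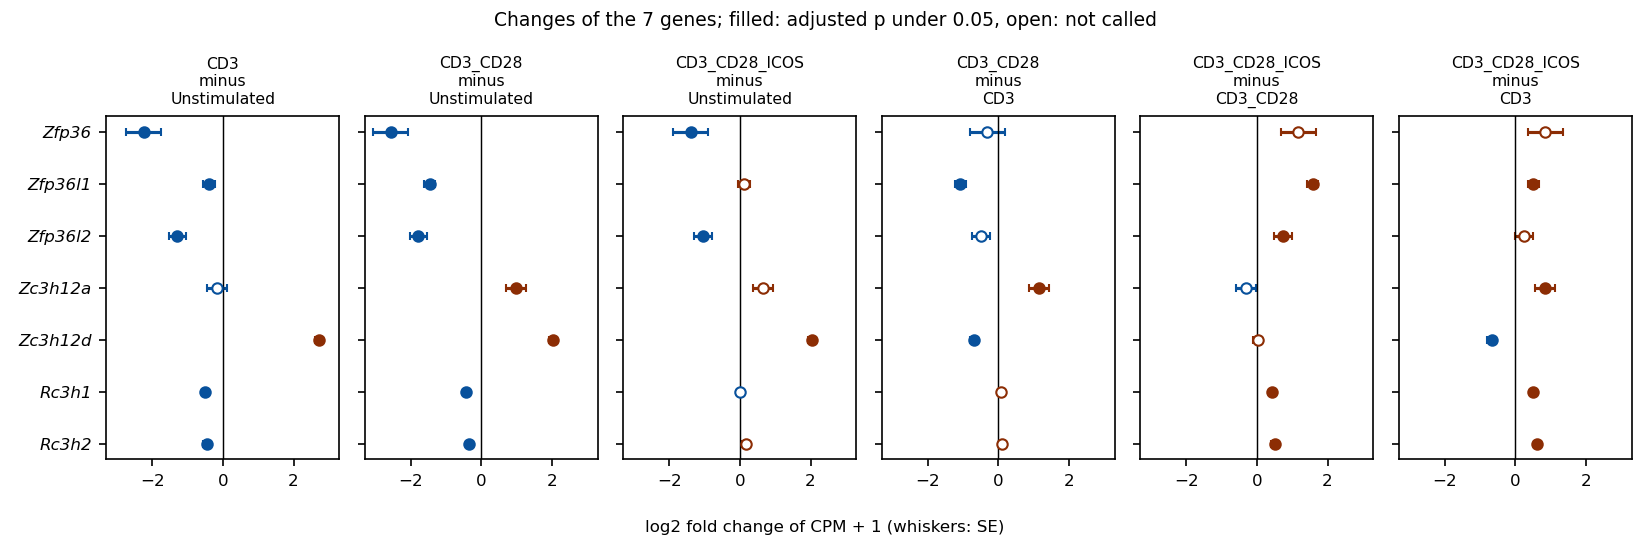
Log2 fold change of CPM + 1 of each gene in the 6 comparisons between groups (limma, whiskers are the SE); filled points had an adjusted p under 0.05 and open points did not, brown is higher and blue lower in the first group. The ZFP36 and Roquin genes lie left of 0 for CD3 and CD3_CD28 against unstimulated cells and right of 0 for CD3_CD28_ICOS minus CD3_CD28, while Zc3h12d reaches 2.72 in CD3 minus Unstimulated.

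Zfp36 encodes tristetraprolin, the founding member of its family and itself an immediate-early gene. It lies at chr7:28376784-28380253 on the minus strand (mm10). Its level was 312, 259 and 1299.6 CPM in Unstimulated replicates 1, 2 and 3. It was 96.0, 106 and 95.1 CPM with CD3, 66.9, 96.2 and 77.4 CPM with CD3_CD28, and 160.2, 182 and 197 CPM with CD3_CD28_ICOS. Every unstimulated library was above every stimulated one, and the CD3_CD28_ICOS libraries were above the other stimulated ones, while CD3 and CD3_CD28 overlapped. The log2 fold change was -2.24 (SE 0.49, limma adjusted p = 0.00253) with CD3 and -2.56 (SE 0.49, adjusted p = 0.000955) with CD3_CD28. With CD3_CD28_ICOS it was -1.39 (SE 0.49, adjusted p = 0.0344), a call that was lost on leaving out any 1 of the CD3 or CD3_CD28_ICOS libraries (adjusted p 0.0518 to 0.0945). The early response genes moved with Zfp36 in Unstimulated replicate 3: Fos, a subunit of the AP-1 factor, was at 1274.7 CPM there and at 70.7 and 30.9 CPM in the other 2, and Dusp1, a MAP kinase phosphatase, at 456 against 51.6 and 24.2 CPM. Without that library the 3 decreases of Zfp36 were -1.51, -1.83 and -0.67, with limma adjusted p of 1.85e-06, 2.67e-07 and 0.00204.

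Zfp36l2, a paralog that with Zfp36l1 restrains proliferation of developing lymphocytes, followed a similar order of groups at chr17:84183931-84187947 (minus strand). It was at 607, 479 and 1211 CPM in the unstimulated libraries. With CD3 it was at 297, 287 and 285 CPM, with CD3_CD28 at 201, 217 and 198 CPM, and with CD3_CD28_ICOS at 316, 328 and 386 CPM. The 4 groups did not overlap with each other in any pair. Its log2 fold change from unstimulated cells was -1.28 (SE 0.25, limma adjusted p = 0.00067) with CD3, -1.78 (SE 0.25, adjusted p = 4.24e-05) with CD3_CD28 and -1.04 (SE 0.25, adjusted p = 0.00358) with CD3_CD28_ICOS. Without Unstimulated replicate 3 these were -0.90, -1.39 and -0.66, each still called.

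Zfp36l1, at chr12:80107754-80113013 (minus strand), changed less from the unstimulated level with CD3 and more with CD3_CD28. Its levels were 269, 232 and 348 CPM in the unstimulated libraries and 213, 217 and 208 CPM with CD3. They were 83.0, 113 and 107 CPM with CD3_CD28, and 330.0, 245 and 342 CPM with CD3_CD28_ICOS. The CD3_CD28 libraries were the lowest of the 12, and the unstimulated and CD3_CD28_ICOS libraries overlapped. The decrease with CD3_CD28 was -1.47 on the log2 scale (SE 0.16, limma adjusted p = 2.25e-06). The decrease with CD3 was -0.39 (SE 0.16, adjusted p = 0.0454) and lost its call on leaving out any of 6 libraries, among them Unstimulated replicate 3 (-0.23, adjusted p = 0.208). The difference with CD3_CD28_ICOS was 0.12 (SE 0.16, adjusted p = 0.552). Antisense genes share exonic bases with all 3 family members, Gm26669 with 1672 bases of Zfp36l1, Gm44710 with 125 of Zfp36 and AC132455.1 with part of an exon of Zfp36l2, and it is not stated whether strand was used in counting, so reads of the pairs cannot be told apart.

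**Figure D3:**
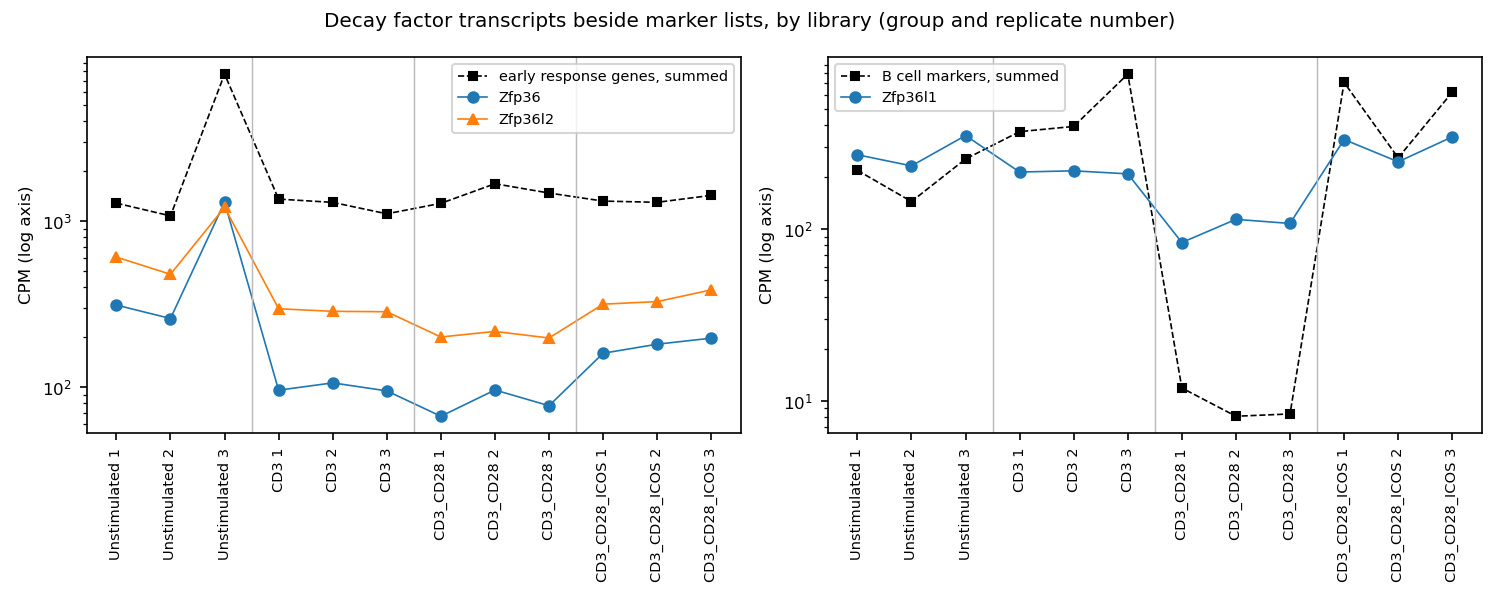
CPM by library on log axes, with vertical lines between groups: left, Zfp36 and Zfp36l2 beside the summed early response list; right, Zfp36l1 beside the summed B cell markers. The early response sum peaks at 7683 CPM in Unstimulated replicate 3 together with both genes, and the B cell sum is lowest, at 8.10 to 11.8 CPM, in the CD3_CD28 libraries, where Zfp36l1 is lowest too.

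Zc3h12d, which encodes a Regnase-type protein also called TFL and known to restrain T cell cytokine production, was the member that rose most. It lies at chr10:7832470-7870396 on the plus strand. Its levels were 57.2, 52.7 and 47.9 CPM in the unstimulated libraries, 364, 344 and 344 CPM with CD3, 193, 246 and 214 CPM with CD3_CD28, and 257, 182 and 227 CPM with CD3_CD28_ICOS. The unstimulated libraries were the lowest and the CD3 libraries the highest, and the 2 costimulated groups overlapped. It rose by 2.72 (SE 0.12, limma adjusted p = 4.61e-10) on the log2 scale with CD3, by 2.02 (adjusted p = 4.44e-09) with CD3_CD28 and by 2.04 (adjusted p = 1.14e-08) with CD3_CD28_ICOS. Of all tested genes, 5.40%, 11.7% and 5.96% changed by more in these 3 comparisons.

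Zc3h12a, at chr4:125118423-125127840 (minus strand), had the lowest CPM of the 7. It was at 11.9, 9.87 and 28.9 CPM in the unstimulated libraries and at 12.1, 13.2 and 14.6 CPM with CD3. It was at 27.7, 35.5 and 29.2 CPM with CD3_CD28 and at 22.9, 22.9 and 28.1 CPM with CD3_CD28_ICOS. Unstimulated replicate 3 lay among the costimulated libraries and the other 2 unstimulated ones near the CD3 group. The log2 difference from unstimulated cells was -0.18 (SE 0.29, limma adjusted p = 0.599) with CD3 and turned to 0.27 (adjusted p = 0.119) without Unstimulated replicate 3. It rose by 0.97 (SE 0.29, adjusted p = 0.00829) with CD3_CD28, although the groups overlapped and a fit of those 2 groups alone gave an adjusted p of 0.0696. With CD3_CD28_ICOS the difference was 0.66 (SE 0.29, adjusted p = 0.0638), and without Unstimulated replicate 3 it was 1.11 (adjusted p = 4.7e-05). Among the family members outside the 7, Khnyn rose with all 3 stimulations, from 76.6 ± 10.5 to 159 ± 31.2, 225 ± 13.9 and 183 ± 59.6 CPM (SD, n = 3; adjusted p 2.87e-05 to 0.000921), and N4bp1 ranged from 67.2 to 72.5 CPM in group means and was not called in the values as deposited. Scaled by quantiles or by median of ratios, N4bp1 was called lower in CD3 minus Unstimulated and higher in CD3_CD28 minus CD3. Zc3h12b and Zc3h12c were at or below 3.68 CPM in every library and were not tested.

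The Roquin genes moved within a narrower range. Rc3h1 (chr1:160906418-160974978, plus strand) was at 123, 112 and 127 CPM in the unstimulated libraries, 90.1, 80.8 and 82.2 CPM with CD3, 87.2, 88.5 and 90.6 CPM with CD3_CD28, and 128, 116 and 117 CPM with CD3_CD28_ICOS. Rc3h2 (chr2:37370069-37422903, minus strand) was at 56.0, 49.6 and 43.1 CPM, then 34.3, 33.9 and 39.3 CPM, then 40.1, 38.4 and 38.0 CPM, and then 57.3, 53.8 and 54.9 CPM in the same order. In both genes CD3 and CD3_CD28 overlapped each other and lay below the unstimulated and CD3_CD28_ICOS libraries, which overlapped in turn. Rc3h1 fell by 0.51 (SE 0.08, limma adjusted p = 7.47e-05) on the log2 scale with CD3 and by 0.44 (adjusted p = 0.000241) with CD3_CD28. Rc3h2 fell by 0.45 (SE 0.10, adjusted p = 0.00133) and 0.34 (adjusted p = 0.00861), and the second call was lost without Unstimulated replicate 1 (-0.25, adjusted p = 0.0535). With CD3_CD28_ICOS neither was called against unstimulated cells, at -0.01 (adjusted p = 0.942) for Rc3h1 and 0.16 (adjusted p = 0.186) for Rc3h2.

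Among the stimulated groups, the mean levels of the ZFP36 and Roquin transcripts were highest with CD3_CD28_ICOS, that of Zc3h12a with CD3_CD28 and that of Zc3h12d with CD3. In CD3_CD28 minus CD3, 1 of 7 was called higher and 2 lower, where 18.7% of all tested genes were called higher and 45.7% lower. In CD3_CD28_ICOS minus CD3_CD28, 4 were called higher and none lower, against 38.5% and 24.5%, and at an unadjusted p under 0.05 none was lower either. In CD3_CD28_ICOS minus CD3, 4 were called higher and 1 lower, against 18.9% and 28.7%. In either direction 3, 4 and 5 were called, beside 64.4%, 63.0% and 47.7% of genes. The groups did not overlap for 4, 5 and 7 members, beside 72.4%, 64.8% and 58.5% of genes. The medians of the 7 were -0.32, 0.50 and 0.50, beside -0.24, 0.13 and -0.07 over all genes. An F test of limma over the 9 stimulated libraries called all 7 (adjusted p 1.04e-05 to 0.000676), where it called 80.7% of all tested genes.

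Zfp36l1 had the widest range among stimulated cells. It was lower with CD3_CD28 than with CD3 by -1.08 on the log2 scale (SE 0.16, limma adjusted p = 9.2e-05) and higher with CD3_CD28_ICOS than with CD3_CD28 by 1.58 (SE 0.16, adjusted p = 2.56e-06), a change that 7.32% of tested genes exceeded. In CD3_CD28_ICOS minus CD3 it was 0.50 (SE 0.16, adjusted p = 0.0205), a call lost without CD3 replicate 3 or without CD3_CD28_ICOS replicate 1 or 3 (adjusted p 0.0550 to 0.0866). The B cell markers moved the same way: 9 of 9 were called lower in CD3_CD28 minus CD3 and 9 of 9 higher in CD3_CD28_ICOS minus CD3_CD28. In the CD3_CD28 libraries Blk was listed at 0 in replicates 2 and 3 and Cr2 in replicate 1, and the most abundant marker there, Cd79b, was at 4.25 to 5.57 CPM. Within the unstimulated and the CD3_CD28_ICOS groups, the library with the lowest B cell sum (144 and 258 CPM) also had the lowest Zfp36l1 (232 and 245 CPM). Within the CD3 and the CD3_CD28 groups, the library with the highest B cell sum (793 and 11.8 CPM) had the lowest Zfp36l1 (208 and 83.0 CPM). The part of these cells in the result was not tested.

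Zfp36 and Zfp36l2 were also higher with CD3_CD28_ICOS than with CD3_CD28, by 1.17 (SE 0.49, limma adjusted p = 0.0641) and 0.74 (SE 0.25, adjusted p = 0.0230). The Zfp36 value missed the threshold in the fit of all 12 libraries, whose spread includes Unstimulated replicate 3, and passed it in a fit of the 9 stimulated libraries added after the data were seen (adjusted p = 1.94e-05) and without Unstimulated replicate 3 (adjusted p = 9.2e-06) or replicate 2 (adjusted p = 0.0368). The Zfp36l2 call was lost without CD3_CD28 replicate 1 or 3 or CD3_CD28_ICOS replicate 3 (adjusted p 0.0578 to 0.0799) and under both other scalings (0.61 and 0.59, adjusted p 0.0535 and 0.0809). In CD3_CD28 minus CD3, Zfp36 was at -0.32 (adjusted p = 0.594) and Zfp36l2 at -0.50 (adjusted p = 0.102). Both were called without Unstimulated replicate 3, at adjusted p of 0.0480 and 0.00111, and Zfp36l2 also without replicate 2 (0.0369) and in the fit of 9 libraries (0.000744). In CD3_CD28_ICOS minus CD3, Zfp36 was at 0.85 (adjusted p = 0.189, and 0.000285 without Unstimulated replicate 3) and Zfp36l2 at 0.24 (adjusted p = 0.462).

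The Regnase paralogs went apart. Zc3h12a was higher with CD3_CD28 than with CD3 by 1.15 (SE 0.29, limma adjusted p = 0.00413), and Zc3h12d was lower by -0.69 (SE 0.12, adjusted p = 0.000292). In CD3_CD28_ICOS minus CD3, Zc3h12a was higher by 0.84 (SE 0.29, adjusted p = 0.0299) and Zc3h12d lower by -0.67 (SE 0.12, adjusted p = 0.000635). The former call was lost on leaving out CD3 replicate 1 or 2 or any CD3_CD28_ICOS library (adjusted p 0.0502 to 0.0997). Between CD3_CD28_ICOS and CD3_CD28, Zc3h12a differed by -0.31 (adjusted p = 0.366) and Zc3h12d by 0.02 (adjusted p = 0.901). Both Roquin genes were higher with CD3_CD28_ICOS than with either other stimulation: Rc3h1 by 0.43 (SE 0.08, adjusted p = 0.00043) and 0.50 (adjusted p = 0.000275), and Rc3h2 by 0.50 (SE 0.10, adjusted p = 0.000783) and 0.62 (adjusted p = 0.000328), over CD3_CD28 and CD3. In CD3_CD28 minus CD3 they were at 0.07 (adjusted p = 0.445) and 0.12 (adjusted p = 0.333), and both became called higher when libraries were scaled by median of ratios (0.29 and 0.32) or by quantiles (0.26 and 0.32), which moved the median of all genes by 0.21 in that comparison.

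**Figure D4:**
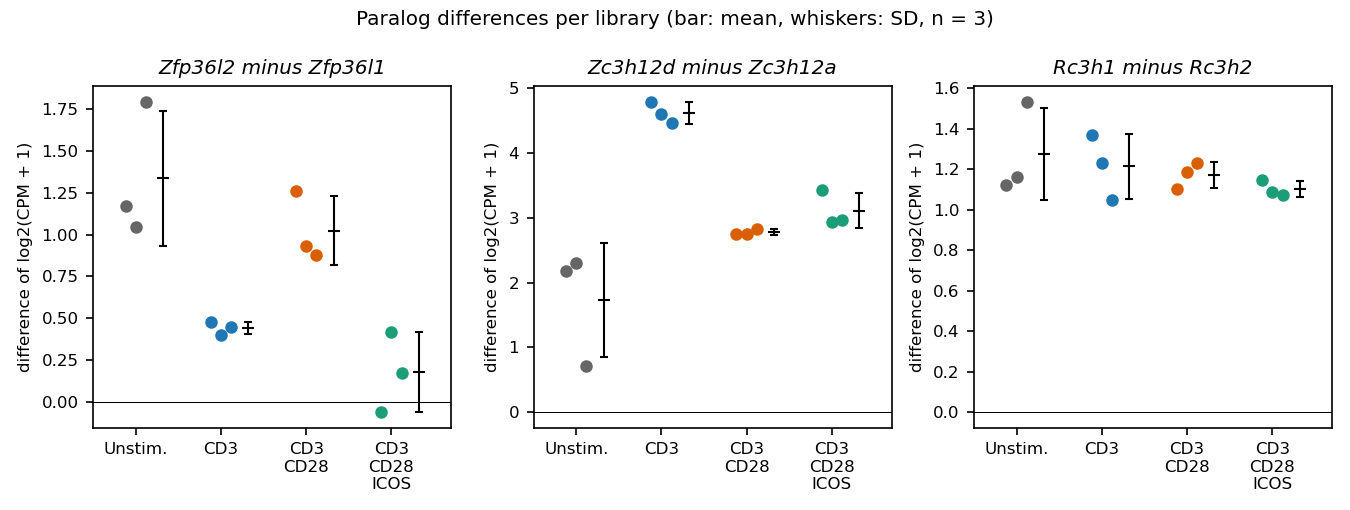
Difference of log2(CPM + 1) between paralogs in each library (linear axis), with points for replicates 1 to 3 and the mean ± SD of 3 libraries beside them. Zfp36l2 minus Zfp36l1 is highest, among stimulated groups, with CD3_CD28 (0.88 to 1.26), Zc3h12d minus Zc3h12a with CD3 (4.47 to 4.80), and Rc3h1 minus Rc3h2 spans 1.05 to 1.37 over the 9 stimulated libraries.

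A factor that scales a whole library nearly cancels in the difference between paralogs. Zfp36l2 exceeded Zfp36l1 by 0.44 ± 0.04 (SD, n = 3) on the log2 scale with CD3, 1.02 ± 0.21 with CD3_CD28 and 0.18 ± 0.24 with CD3_CD28_ICOS, and the groups differed (exact permutation test of F over 1680 assignments of the 9 stimulated libraries, p = 0.00714, adjusted over 3 paralog pairs 0.0107). Zc3h12d exceeded Zc3h12a by 4.62 ± 0.17 with CD3, 2.78 ± 0.04 with CD3_CD28 and 3.11 ± 0.27 with CD3_CD28_ICOS (exact permutation p = 0.00357, the smallest this design gives, adjusted p = 0.0107). Rc3h1 exceeded Rc3h2 by 1.22 ± 0.16, 1.17 ± 0.07 and 1.10 ± 0.04 (exact permutation p = 0.461), so that no change in the Roquin ratio was detected. In the unstimulated libraries these differences were 1.34 ± 0.40, 1.73 ± 0.89 and 1.27 ± 0.23.

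The genes whose pattern over the 12 libraries was closest to each member were found by the root-mean-square difference of centred log2 values, given as a description. For Zfp36 the closest was Zfp36l2 (0.46), followed by Frat2 (0.47) and Dnajb9 (0.48). Zfp36l1 was closest to Kmt2a (0.16), Selenot (0.16) and Fryl (0.18), and Zfp36l2 to Frat2, Taf7 (both 0.22) and Hexim1 (0.25). The closest to Zc3h12a were Gtf2ird1 (0.29), Adamtsl4 (0.30) and Rnf138 (0.31), and to Zc3h12d they were Poc1a (0.16), Fam92a (0.19) and Myo1c (0.20). Rc3h1 was nearest to Ino80d, Tmx3 and Arhgap30 (each 0.10) and Rc3h2 to Lnpep (0.08), Trp53bp2 and Tut7 (both 0.10). The Roquin genes lay 0.13 from each other and the Regnase genes 1.10.

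Promoter sequence of RefSeq (GRCm38.p6), 250 bases before the annotated start, was matched for 6 of the 7 genes. Zfp36l2 had no promoter entry and was not searched. It is shown for the Roquin genes, which moved together, and for Zfp36 and Zfp36l1, whose patterns lay 0.82 apart in root-mean-square log2 distance. Capitals mark matches on either strand to AP-1 (TGANTCA, in 6.75% of 32851 promoters), the NFAT core (GGAAA, in 55.6%) and EGR (GCGNGGGCG, in 4.70%). These matches did not overlap one another. A match is not a site in use. The windows are chr7:28379229-28379478 (minus strand), chr12:80113014-80113263 (minus), chr1:160906161-160906410 (plus) and chr2:37422904-37423153 (minus). The window of Zfp36 lies inside the span given above for that gene, chr7:28376784-28380253. By that annotation its matches are within the gene and not before its start.
Zfp36: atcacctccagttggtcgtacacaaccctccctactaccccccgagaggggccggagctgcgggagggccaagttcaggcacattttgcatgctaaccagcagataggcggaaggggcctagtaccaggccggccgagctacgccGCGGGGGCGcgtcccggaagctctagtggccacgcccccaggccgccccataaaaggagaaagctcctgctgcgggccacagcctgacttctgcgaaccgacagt
Zfp36l1: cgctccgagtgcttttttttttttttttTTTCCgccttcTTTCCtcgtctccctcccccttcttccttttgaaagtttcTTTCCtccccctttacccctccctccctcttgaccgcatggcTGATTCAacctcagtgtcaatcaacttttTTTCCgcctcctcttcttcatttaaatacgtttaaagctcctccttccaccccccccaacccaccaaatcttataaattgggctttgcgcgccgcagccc
Rc3h1: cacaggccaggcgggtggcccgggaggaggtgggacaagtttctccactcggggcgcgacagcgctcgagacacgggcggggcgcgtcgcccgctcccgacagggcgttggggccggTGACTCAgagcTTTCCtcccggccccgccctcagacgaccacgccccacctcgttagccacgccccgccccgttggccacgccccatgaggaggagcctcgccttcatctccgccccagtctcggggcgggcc
Rc3h2: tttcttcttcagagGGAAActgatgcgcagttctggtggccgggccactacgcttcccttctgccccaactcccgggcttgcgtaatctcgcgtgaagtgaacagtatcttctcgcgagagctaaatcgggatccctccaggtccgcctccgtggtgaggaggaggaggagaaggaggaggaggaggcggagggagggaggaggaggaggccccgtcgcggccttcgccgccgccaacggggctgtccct
Zfp36l1 held 4 NFAT core letters and 1 AP-1 match, Rc3h1 held 1 of each and Rc3h2 1 NFAT core. Zfp36 held 1 EGR match and 1 match to the serum response element, which 1.47% of promoters hold and which is not capitalised. Zc3h12a and Zc3h12d held none of these 4 motifs, and none of the 6 genes searched held the cyclic AMP response element (TGACGTCA, in 1.55%). The SP motif GGGGCGGGG (in 10.4%) was in Zc3h12a and Rc3h1 once each.

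The proteins that act after these factors were measured as lists. The 14 deadenylase genes were Cnot genes of CCR4-NOT, the machine that ZFP36 and Roquin proteins recruit, with Pan2, Pan3 and Parn. Of the 14, 8 were called higher and 2 lower in CD3 minus Unstimulated, where 43.6% of all tested genes were called higher and 26.3% lower. The counts were 4 and 6 in CD3_CD28 minus Unstimulated (36.1% and 39.1% of all genes), and 7 and 1 in CD3_CD28_ICOS minus Unstimulated (35.6% and 23.7%). In CD3_CD28 minus CD3 none was higher and 8 were lower, beside 18.7% and 45.7% of all genes. In CD3_CD28_ICOS minus CD3_CD28, 8 were higher and 2 lower, beside 38.5% and 24.5%. Cnot9, a subunit that docks to such factors, rose from 50.5 ± 1.11 to 118 ± 8.65 CPM with CD3 (SD, n = 3; limma adjusted p = 9.58e-08). Pan3, an adaptor of the PAN2 deadenylase, was 120.0 ± 7.45, 85.6 ± 12.7, 70.9 ± 3.46 and 128 ± 11.1 CPM in the order unstimulated, CD3, CD3_CD28 and CD3_CD28_ICOS, and was called lower against unstimulated cells with CD3 and with CD3_CD28 and higher again with CD3_CD28_ICOS against CD3_CD28 (0.84, adjusted p = 1.41e-05).

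The RNA exosome degrades transcripts from the 3′ end. Of its 10 tested genes, 7 were called higher and none lower in CD3 minus Unstimulated, beside 43.6% and 26.3% of all tested genes. None was higher and 9 were lower in CD3_CD28 minus CD3, beside 18.7% and 45.7%. None was higher and 8 were lower in CD3_CD28_ICOS minus CD3, beside 18.9% and 28.7%. The median of the exosome genes in those comparisons was 0.52, -0.66 and -0.55, beside 0.18, -0.24 and -0.07 over all genes. The catalytic subunit Dis3 was at 33.2 ± 0.64, 76.5 ± 2.38, 38.3 ± 6.84 and 37.5 ± 13.6 CPM in the 4 groups. Of 11 decapping and 5′ decay genes, 4 were called higher and 1 lower with CD3, and 5 and 4 with CD3_CD28, against unstimulated cells. Of all tested genes, 43.6% were higher and 26.3% lower with CD3, and 36.1% and 39.1% with CD3_CD28. Eif4enif1, which bridges cap-binding and decay factors, went from 90.1 ± 2.89 CPM to 236 ± 3.01 with CD3 and 120.2 ± 7.82 with CD3_CD28 (log2 1.38 between the first pair, adjusted p = 2.49e-08). Of 10 nonsense-mediated decay genes, 2 were called higher and 3 lower with CD3, and none and 4 with CD3_CD28, beside the same shares of all genes. In CD3_CD28_ICOS minus CD3_CD28, 6 were higher and none lower, beside 38.5% and 24.5% of all genes. The kinase gene Smg1 rose by 0.80 there (adjusted p = 2.66e-05).

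The ZFP36 genes are not the only ones whose proteins bind AU-rich elements. Of 9 others, 8 were called higher and none lower in CD3 minus Unstimulated, beside 43.6% and 26.3% of all tested genes. In CD3_CD28 minus Unstimulated, 4 were higher and 2 lower, beside 36.1% and 39.1%. Hnrnpd, which encodes the decay factor AUF1, was at 196 ± 6.66, 314 ± 23.3, 88.3 ± 13.1 and 183 ± 28.8 CPM in the 4 groups. Tia1, a translational silencer, was at 38.4 to 47.0 CPM in the unstimulated libraries, 29.6 to 61.2 with CD3, 6.86 to 8.46 with CD3_CD28 and 34.8 to 53.9 with CD3_CD28_ICOS. Its CD3_CD28 libraries were below all others, by -2.40 against CD3 (SE 0.23, limma adjusted p = 3.34e-06), and CD3_CD28_ICOS was above them by 2.44 (adjusted p = 1.41e-06).

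Of 15 regulators and partners of the decay factors, 4 were called higher and 8 lower with CD3_CD28 against unstimulated cells. Of all tested genes, 36.1% were higher and 39.1% lower there. With CD3 against unstimulated cells, 5 were higher and 6 lower, beside 43.6% and 26.3% of all tested genes. Mapkapk2, the kinase that phosphorylates tristetraprolin, had its lowest level in the unstimulated group (96.3 ± 9.74 CPM), and was at 203 ± 9.07 with CD3, 409 ± 4.27 with CD3_CD28 and 232 ± 11.2 with CD3_CD28_ICOS (log2 2.08 for CD3_CD28 minus Unstimulated, adjusted p = 1.84e-10). Malt1, the protease that cleaves Regnase-1 and Roquins, was at 149 to 164, 182 to 201, 274 to 320 and 147 to 176 CPM in the 4 groups, with CD3_CD28 above all others (0.68 against CD3, adjusted p = 3.43e-05). Ikbke, an IKK-related kinase, was lowest with CD3_CD28 at 44.7 ± 4.16 CPM and at 186 ± 14.4 in unstimulated cells (-2.03, adjusted p = 8.91e-09). Ywhab, a 14-3-3 protein of the kind that holds phosphorylated tristetraprolin, was at 315 ± 9.78 and 103 ± 8.24 CPM in the same groups (-1.60, adjusted p = 3.06e-09).

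Of the transcripts reported elsewhere as targets of the 7 proteins, more were called higher than lower after each stimulation. Of 14 tested, 9 were called higher and 2 lower with CD3, 10 and 2 with CD3_CD28, and 7 and 1 with CD3_CD28_ICOS against unstimulated cells. Of all tested genes, 43.6% were higher and 26.3% lower, 36.1% and 39.1%, and 35.6% and 23.7%, in the same order. The medians of the targets were 0.83, 1.75 and 1.03, beside 0.18, -0.04 and 0.08 over all genes. In CD3_CD28 minus CD3, 8 were higher and 1 lower, beside 18.7% and 45.7% of all genes (median 0.82, beside -0.24 over all genes). In CD3_CD28_ICOS minus CD3_CD28, 1 was higher and 6 were lower, beside 38.5% and 24.5% (median -0.36, beside 0.13). Icos, a Roquin target, was at 37.0 to 49.6 CPM in unstimulated cells, 79.0 to 90.2 with CD3, 216 to 253 with CD3_CD28 and 140 to 148 with CD3_CD28_ICOS. None of these ranges overlapped. Tnfrsf4, which encodes the costimulator OX40, had means of 6.88, 173, 510 and 176 CPM in the same order.

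Ier3 and Tnf, whose 3′ UTRs hold 4 and 8 copies of TATTTAT, were highest with CD3_CD28. Ier3, an early response gene and reported tristetraprolin target, was at 0.364 to 1.91, 3.95 to 7.55, 35.0 to 45.8 and 1.41 to 5.79 CPM in the 4 groups. It reached 10 CPM only in the CD3_CD28 libraries and so passed the filter through the group where it was high. Its difference is therefore given by values only, although it is among the tested targets counted above. Tnf, the inflammatory cytokine through which tristetraprolin was first understood, was at 4.26 to 12.1, 9.91 to 11.7, 35.3 to 39.7 CPM in the first 3 groups and 6.06 ± 0.67 CPM (SD, n = 3) in the last. Its log2 fold change was 1.73 in CD3_CD28 minus CD3 (limma adjusted p = 0.000111). Tfrc, the transferrin receptor gene and a reported Regnase-1 target, had its highest mean with CD3, 558 ± 73.2 CPM against 28.8 ± 5.33 in unstimulated cells. Notch1, with 4 copies of the element, was lower with CD3 (255 ± 20.1 CPM) than in unstimulated cells (349 ± 34.1) by -0.45 (adjusted p = 0.000716). Il2, Ifng, Csf2, Il6 and Il10 were below the tested level, the highest of them being Csf2 at 5.28 to 9.65 CPM with CD3_CD28. These are levels after 72 h and hold no measure of decay rate, and the relation of any target to a decay factor was not tested.

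These list counts move with the scaling of the libraries. Scaled by quantiles or by median of ratios, the median of all genes shifted by -0.25 and -0.17 in CD3 minus Unstimulated, by -0.16 and -0.10 in CD3_CD28_ICOS minus Unstimulated, by 0.21 under both in CD3_CD28 minus CD3, and by -0.12 and -0.14 in CD3_CD28_ICOS minus CD3_CD28. The share of called genes that were higher went from 62.4% to 45.3% and 50.6% in the first of these comparisons, from 29.0% to 48.1% and 48.4% in the third, from 61.2% to 50.9% and 48.6% in the fourth, and from 39.7% to 50.5% and 48.4% in CD3_CD28_ICOS minus CD3. In CD3_CD28_ICOS minus Unstimulated, 3500 genes were higher and 2332 lower as deposited, 2735 and 3487 with quantiles, and 3098 and 3199 with median of ratios. The exosome kept its direction, with 0 higher and 7 lower of 10 in CD3_CD28 minus CD3 under both scalings. The deadenylase counts in that comparison became 2 higher and 6 lower with quantiles, and 4 and 4 with median of ratios. In CD3 minus Unstimulated they became 4 higher and 3 lower, and 5 and 4, in the same order. Those of nonsense-mediated decay became 0 higher and 6 lower in CD3 minus Unstimulated under both scalings, and 4 higher and 2 lower, and 3 and 2, in CD3_CD28_ICOS minus CD3_CD28. Those of the decapping genes in CD3 minus Unstimulated became 3 higher and 2 lower, and 3 and 3. The reported targets in CD3 minus Unstimulated became 6 higher and 5 lower, and 7 and 5. In the same comparison the regulators and partners became 1 higher and 6 lower, and 1 and 7. The other AU-rich element binding proteins became 6 higher and 0 lower, and 5 and 0. At an unadjusted p under 0.05, limma found 1 deadenylase gene higher in CD3_CD28 minus CD3, and the other counts of none given here for these lists stayed at 0.

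**Figure D5:**
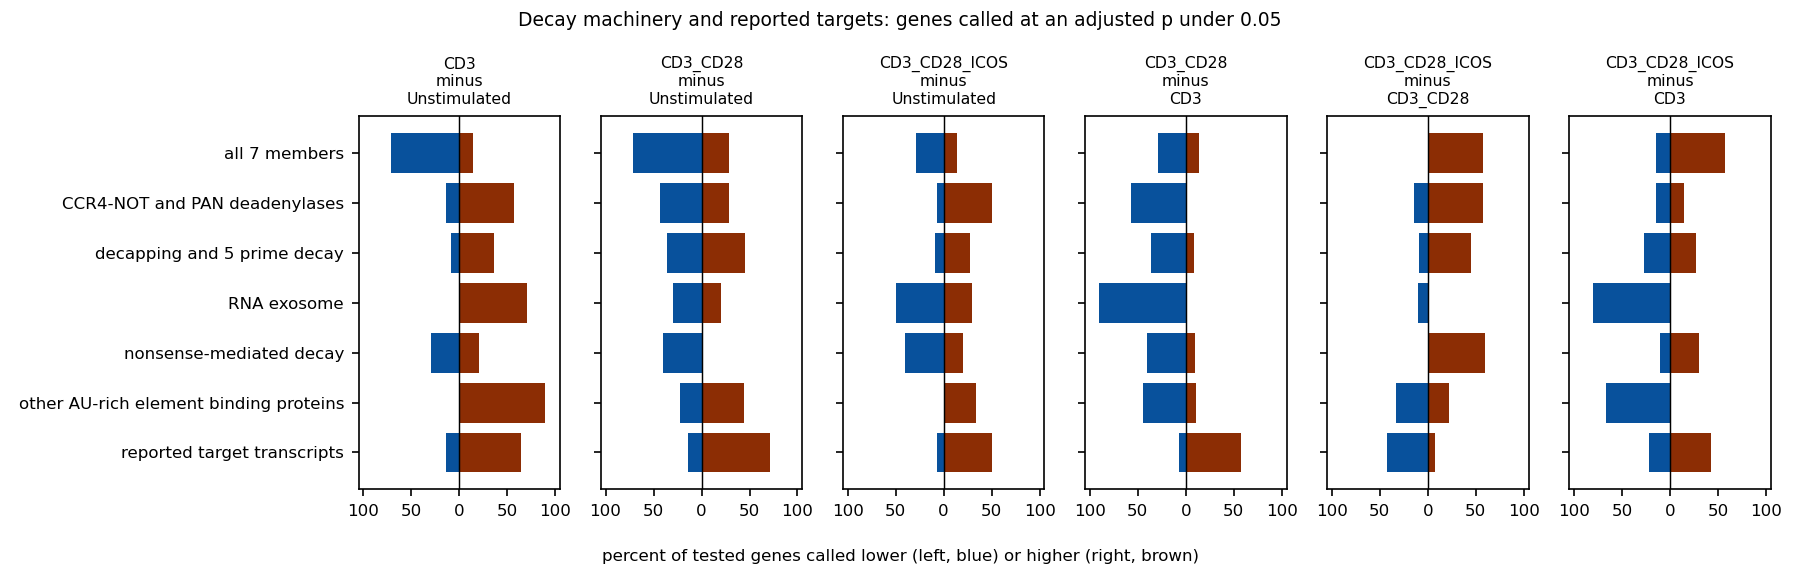
Percent of tested genes of each list called higher (brown, to the right) or lower (blue, to the left) at an adjusted p under 0.05, in the 6 comparisons between groups. The RNA exosome bar points left in CD3_CD28 minus CD3 (9 of 10 genes lower) while the bar of reported targets points right (8 of 14 higher).

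In the authors' deposited table of comparisons, no more members passed a false discovery rate of 0.05 in any comparison than in the limma fit. The authors' deposited table has 4 of 7 for CD3 minus Unstimulated, 5 for CD3_CD28 and 3 for CD3_CD28_ICOS against the same group, beside 26.1%, 32.7% and 18.1% of all genes there. Its shares are over 17144 genes, against the 9826 tested with limma. For CD3_CD28 minus CD3, CD3_CD28_ICOS minus CD3_CD28 and CD3_CD28_ICOS minus CD3 the authors' deposited table has 2, 1 and 2, beside 17.0%, 19.5% and 8.66%. The single member in the comparison of CD3_CD28_ICOS with CD3_CD28 is Zfp36l1, with a log2 ratio of 1.59 in the authors' deposited table. Rc3h2 and Zc3h12a passed in none of the 6 comparisons there, with lowest FDRs of 0.141 and 0.0560. Other limma calls that did not pass there were Zfp36l2 (FDR 0.0629) and Rc3h1 (0.0663) in CD3_CD28_ICOS minus CD3_CD28. Zfp36l1 did not pass in CD3_CD28_ICOS minus CD3 (0.0678) or CD3 minus Unstimulated (0.105).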

How the data were processed

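Values were deposited by the authors as CPM per gene and library, per the file headers, summing to 1000000 in each library with a constant of 0.0001 added. The submitters' processing notes name Partek 10, DESeq2 and build mm10, and no aligner, counter or gene annotation is named in the sources used here. The authors' deposited table of comparisons gives a ratio, its log2, a fold change, a p-value and an FDR per gene, and the log2 ratios are the authors' own. The steps between low values came out whole for 76.4% to 81.4% of values (tolerance 0.02), so reads were not recovered and no count test was run; depth is an estimate. Samples were grouped by their labels. From the deposited CPM, log2(CPM + 1) was fitted in limma 3.58.1 (R 4.3.3; trend, robust, 1 mean per group, 12 libraries, two-sided, Benjamini-Hochberg over 9826 genes). The fit was run on simulated data in which a small set of genes changed in a single group, equally up and down. The simulation had a fixed spread and no outlying library, so it does not cover the shifts or the outlying libraries described here. The table was planned for as normalized values and found to hold CPM, and 0 columns of other samples were left out. Named genes were the 7 members, up to 4 called genes per list and comparison, list genes below the tested level, and 3 closest genes per member. Fos, Dusp1, Icos, Malt1 and a few other preset genes were also allowed. The members and lists were chosen with earlier results of these data known. Alternatives were the pseudocount, filter, scaling, ribosomal RNA gene, replicate block, limma options, the 2 groups alone and each library left out.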

Additional observations from a re-analysis of the deposited data

How the results depend on the processing

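Of 42 member comparisons, 28 were called and 21 kept their call under every alternative run. The replicate numbers were not used as pairs in the main fit. Of 18 same-numbered pairs, 6 had a correlation of deviations over 0.1 (range -0.10 to 0.41). Differently numbered pairs ranged from -0.33 to 0.33. Between CD3 and CD3_CD28_ICOS, same-numbered pairs were at 0.088, 0.41 and 0.34, and differently numbered pairs at -0.31 to 0.13. Whether the libraries are paired cannot be settled from these values. With the replicate block, 41 of 42 calls were the same, and members called higher in CD3_CD28_ICOS minus Unstimulated went from 1 to 2. With no filter on low values, 17203 genes were tested. Genes called lower then went from 2582 to 4472 (CD3), 3846 to 6595 (CD3_CD28) and 2332 to 3744 (CD3_CD28_ICOS against Unstimulated). In CD3_CD28 minus CD3, genes called higher went from 1837 to 2882 (quantiles) and 2909 (median of ratios), and members from 1 to 3 under both. In a fit of the 2 groups alone, members called went from 2 to 1 (CD3_CD28 minus Unstimulated, higher), 2 to 1 (CD3_CD28_ICOS minus Unstimulated, lower) and 2 to 4 (CD3_CD28 minus CD3, lower). Without both doubted libraries, an alternative added after seeing the data, 2 members were higher in CD3_CD28_ICOS minus Unstimulated and 1 lower in CD3_CD28_ICOS minus CD3_CD28. The cause of these moves was not tested. With 1 library left out in turn, members called ranged from 1 to 2 (CD3_CD28_ICOS minus Unstimulated, in each direction), 2 to 4 (CD3_CD28 minus CD3, lower) and 2 to 5 (CD3_CD28_ICOS minus CD3, higher). Values that changed sign were small and uncalled. Leaving out 1 library in turn gave -0.46 to 0.27 for Zc3h12a in CD3 minus Unstimulated, highest without Unstimulated replicate 3 and the same without CD3_CD28 replicate 1 as well. In CD3_CD28_ICOS minus Unstimulated it gave -0.018 to 0.27 for Zfp36l1, lowest without Unstimulated replicate 2, and -0.059 to 0.028 for Rc3h1, highest without Unstimulated replicate 3, alone or together with CD3_CD28 replicate 1. In CD3_CD28_ICOS minus CD3_CD28 it gave -0.092 to 0.16 for Zc3h12d. That value also turned to -0.11 with quantiles, -0.13 with median of ratios, -0.039 with no ribosomal RNA gene and -0.064 without both doubted libraries.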
